A study of Mus musculus with 9 samples.

Results

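Irf4, Batf, Prdm1, Maf, Bach2, Irf8, Nfil3 and Bhlhe40 are transcription factor genes of activated and effector regulatory T cells (Tregs), a CD4 lineage that is defined by Foxp3 and restrains immune responses. These 8 genes were taken by symbol from the 43432 Ensembl genes of a count table by a list of names that was drawn up with earlier results of these data known, and all 8 passed the filter on low counts that left 13685 genes for testing. Without Ezh2, Irf4 transcripts were lower in every library. Nfil3 and Bhlhe40 were modestly higher, but their calls held in only 3 and 2 of the 9 fits that left out 1 library. The other 5 factors did not pass the test.

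Stimulation of the T cell receptor induces IRF4 and BATF, which pair with JUN proteins on composite DNA elements and open the effector program of Tregs. BLIMP-1, the product of Prdm1, and c-MAF act later in that program and promote interleukin-10, whereas BACH2 competes with AP-1 proteins and holds cells in a resting state. IRF8 is the closest relative of IRF4, and NFIL3 and BHLHE40 are repressors that also belong to the circadian system. EZH2 is the enzyme of the Polycomb complex PRC2, whose methyl mark on histone H3 accompanies silent genes.

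RNA was sequenced from Tregs of C57BL/6 mice, sorted, activated with beads carrying antibodies to CD3 and CD28, and cultured to day 4 in medium with interleukin-2 at 2000 U/ml. All 9 cultures carried Foxp3-Cre-GFP, a recombinase made in Foxp3-expressing cells, and the reporter R26-LSL-RFP. The 4 Ezh2-deficient cultures were Ezh2-fl/fl. The WT group held 5 cultures, of which replicate 1 was Ezh2-fl/+ and replicates 2 to 5 were Ezh2-+/+, so that WT replicate 1 carried 1 floxed allele. Age was not used here.

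Libraries held 32469450 to 62201921 counts, and levels are given in CPM, that is, counts relative to a library size scaled by trimmed means of M-values. Ezh2 itself was at 153 to 167 CPM in Ezh2-deficient and 234 to 360 CPM in WT libraries (-0.88 in log2, adjusted p = 0.000363). These counts are of the whole gene, so transcripts without the floxed part are included. Summed markers of Tregs (Foxp3, Il2ra, Ikzf2, Cd4, Cd3e, Cd3g and Trac) were at 9306 to 10085 against 8461 to 9310 CPM, and Foxp3 itself was at 1647 to 1968 against 1293 to 1542 CPM, a rise (0.30 in log2, adjusted p = 0.0313) that was lost on leaving out Ezh2-deficient culture 1, 2 or 3 or WT culture 2, 3 or 5 (adjusted p at most 0.126). The CD8 T cell markers Cd8a and Cd8b1 summed to 57.2, 16.4, 14.2 and 130 CPM in Ezh2-deficient replicates 1 to 4 and 61.8, 63.2, 16.2, 147 and 70.1 CPM in WT replicates 1 to 5. A hypoxia response score, the mean log2 CPM of 24 genes, was 7.06 to 7.35 in 5 libraries (Ezh2-deficient replicates 1 and 4, WT replicates 1, 2 and 4) and 5.89 to 5.92 in the other 4. Neither the CD8 markers (adjusted p = 0.796 for Cd8a) nor any gene of the score (smallest adjusted p = 0.179, for Ddit4) passed the test between the genotypes. In such bulk samples, fewer cells of a type and less RNA per cell cannot be told apart.

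Irf4 (ENSMUSG00000021356; GRCm38 chromosome 13, 30749226 to 30766976, plus strand, protein coding) was at 302, 298, 290 and 356 CPM in Ezh2-deficient replicates 1 to 4. In WT replicates 1 to 5 it was at 604, 599, 583, 803 and 368 CPM. The groups did not overlap, although WT replicate 5 lay only just above the highest Ezh2-deficient library. Irf4 thus averaged 312 ± 30.2 CPM (SD, n = 4) without Ezh2 and 591 ± 154 CPM (SD, n = 5) in WT. It fell 1.90-fold, with a log2 fold change of -0.92 (SE 0.18, 95% interval -1.31 to -0.54, adjusted p = 0.00404). WT replicate 1, with 1 floxed allele, lay between the other WT libraries.

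By rank of p, Irf4 was at 769 of 13685 genes. An exact permutation test over all assignments of libraries to groups gave p = 0.0159, the smallest that this design allows, or 0.0749 when adjusted over all tested genes. The change was -0.79 to -1.07 when each library was left out in turn, with adjusted p of at most 0.0158. Within the 5 libraries with a high hypoxia response score it was -1.03 (adjusted p = 0.00568), and within the 4 with a low score -0.72 (adjusted p = 0.124). Tested against a 1.5-fold change in place of no change, it did not pass (adjusted p = 0.188).

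**Figure D1:**
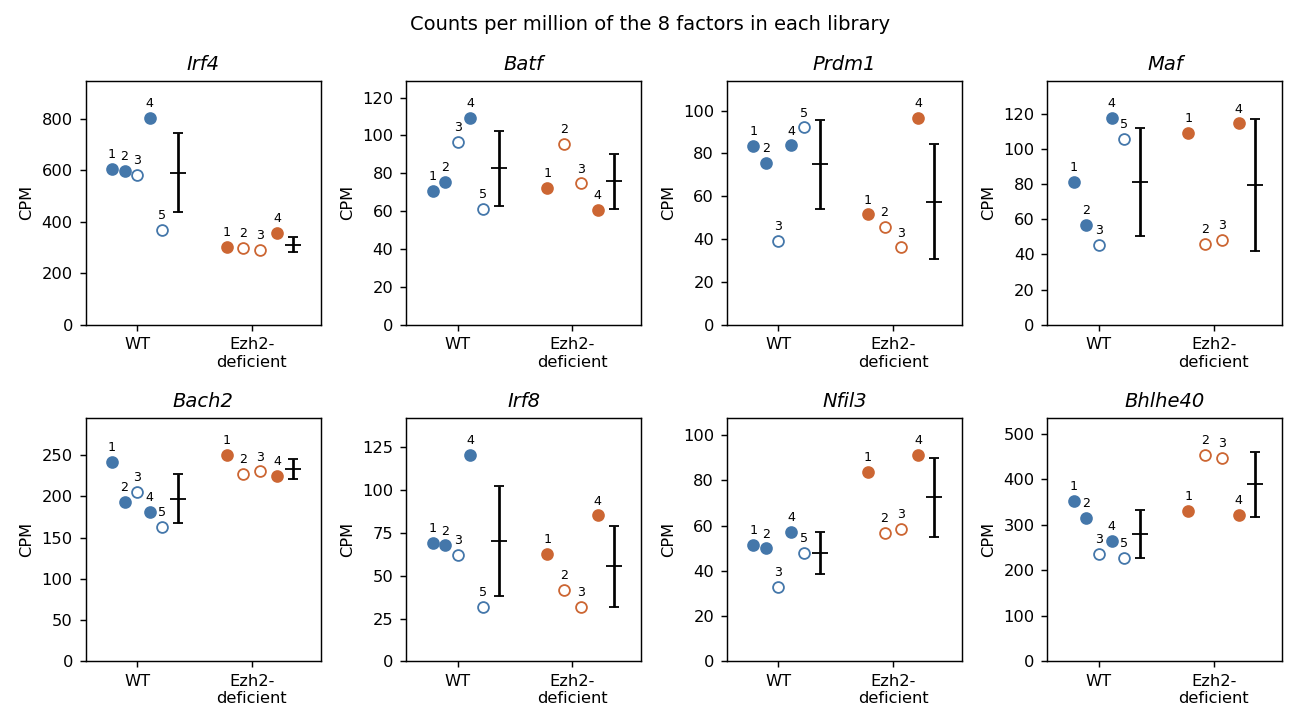
Levels of the 8 factors in CPM (y axes start at 0) in each WT (blue) and Ezh2-deficient (orange) library, with replicate numbers, and bars giving mean and SD; filled points are the 5 libraries with a high hypoxia response score and open points the 4 with a low score. Irf4 is at 356 CPM or less in all 4 Ezh2-deficient libraries and at 368 CPM or more in all 5 WT libraries, while the groups overlap for the other 7 factors.

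Promoter windows of Irf4, the factor that fell, and of Nfil3, a factor that rose, are shown from RefSeq on GRCm38.p6, 250 bases before to 50 after the start, written 5′ to 3′ on the gene's strand, with each CpG in capitals. The first window is chr13:30748983-30749282 on the plus strand and the second chr13:52980990-52981289 on the minus strand.
Irf4: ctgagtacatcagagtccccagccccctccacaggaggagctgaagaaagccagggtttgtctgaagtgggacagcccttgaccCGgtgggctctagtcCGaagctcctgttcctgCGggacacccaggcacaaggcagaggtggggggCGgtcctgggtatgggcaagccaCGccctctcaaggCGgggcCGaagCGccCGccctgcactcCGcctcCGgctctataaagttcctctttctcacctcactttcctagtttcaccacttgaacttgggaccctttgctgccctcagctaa
Nfil3: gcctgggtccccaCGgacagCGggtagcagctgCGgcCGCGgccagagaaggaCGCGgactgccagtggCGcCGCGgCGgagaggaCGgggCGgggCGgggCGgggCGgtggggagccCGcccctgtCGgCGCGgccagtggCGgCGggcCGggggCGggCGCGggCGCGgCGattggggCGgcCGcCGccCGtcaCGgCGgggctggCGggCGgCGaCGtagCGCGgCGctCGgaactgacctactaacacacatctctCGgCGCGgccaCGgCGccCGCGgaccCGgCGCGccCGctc
The Irf4 window held 11 CpG (61.0% G or C) and the Nfil3 window 54 (81.7% G or C). Among 32851 promoter windows of this length the median was 7 CpG, and 58.6% had fewer CpG than Irf4 and 99.7% fewer than Nfil3. Windows were matched for 6 of the 8 genes, not for Maf and Bhlhe40, and the others, of factors that did not pass the test, held 38 and 8 (the 2 Irf8 windows), 20 (Prdm1), 9 (Batf) and 7 CpG (Bach2). The Bach2 window (chr4:32417185-32417484) and the Prdm1 window (chr10:44458699-44458998, minus strand) lie inside these genes, away from the outermost starts at 32238804 and 44528501. The Irf8 window with 8 CpG (chr8:120738389-120738688) also lies inside its gene. No relation between CpG content and change was tested, and no histone mark was measured in these data.

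Motif letters were searched on both strands of the same 7 windows. The AP-1 letters TGANTCA were found in the Prdm1 window, as TGAATCA at 48 bases before the internal start of that window, and in 7.81% of all windows. Neither the interferon-stimulated response element (3.44% of all windows) nor the IRF4 and BATF composite element, adjoining (0.125%) or spaced (0.119%), both of which contain TGANTCA, was found in them. CACGTG, the E-box bound by BHLHE40, was in none of the 7 and in 7.15% of all windows. The GC box letters GGGCGG were in the Irf4, Nfil3, Batf and 1 of the Irf8 windows, and in 35.7% of all windows. These matches describe letters in short windows.

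Irf8 (ENSMUSG00000041515; chromosome 8, 120736358 to 120756694) is the relative of Irf4 that binds the same elements with BATF. It was at 62.9, 41.5, 32.1 and 85.3 CPM in Ezh2-deficient replicates 1 to 4. WT cultures 1 to 5 had 69.3, 67.8, 62.2, 121 and 31.8 CPM. The groups overlapped, and the change of -0.34 (95% interval -1.26 to 0.57) did not pass (adjusted p = 0.578).

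The libraries had the same order for Irf8 as for Irf4 within each group, with replicate 4 the highest, then replicates 1, 2 and 3, and WT replicate 5 the lowest of its group. After subtraction of the group means, Pearson's r of log2 CPM between Irf4 and Irf8 was 0.898 over the 9 libraries, the highest of the 28 pairs among the 8 factors. Jak3, the kinase of the common gamma chain receptors, was picked by its r of 0.989 with Irf8, second to Impa2 (0.993) among 8670 genes. Jak3 had the same order of libraries, at 304, 215, 185 and 334 against 372, 371, 353, 493 and 244 CPM. A high r and a like order come with that choice, so they are no separate support. Irf8 also differed between the hypoxia score classes in both groups, at 62.9 to 85.3 in the high and 32.1 to 41.5 CPM in the low Ezh2-deficient libraries, and 67.8 to 121 and 31.8 to 62.2 CPM in the WT libraries. The part of the hypoxia response in the Irf8 level was not tested.

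IRF8 is also a factor of B cells and dendritic cells. The 8 B cell marker genes summed to 12.7 to 20.4 CPM in Ezh2-deficient and 19.7 to 23.4 CPM in WT libraries, most of it Cd79b at 10.4 to 13.6 CPM. Of the 7 tested, 2 fell (28.6%, against 21.9% of all genes), Cd79a from 2.33 to 0.885 CPM and Blk from 0.603 to 0.156 CPM. Of 13 myeloid and dendritic cell markers, 9 stayed under 1 CPM in every library, and Clec9a had no count in any. Their sum of 80.6 to 106 against 72.4 to 98.0 CPM came mainly from Cst3, which many cell types express. Adgre1 and Itgam rose, 2 of the 4 tested (50%, against 21.9% of all genes). Fcer1g (-1.59 in log2, adjusted p = 0.135) and Cst3 (-0.11, adjusted p = 0.483), the others tested, were lower and did not pass. Plasma cell markers summed to 3.04 to 5.64 against 2.90 to 7.28 CPM, and Fkbp11 rose, 1 of the 5 tested (20%, near the 21.9% of all genes). Derl3 (-1.29 in log2), Jchain (-0.78) and Sdc1 (-0.44) were lower and Mzb1 (0.41) was higher, none past the threshold. NK cell markers summed to 3.91 to 20.6 against 3.33 to 11.9 CPM (smallest adjusted p = 0.335). The part of these cells in the Irf8 level was not tested.

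Batf (ENSMUSG00000034266; chromosome 12, 85686669 to 85709087), the DNA-binding partner of IRF4, was at 72.5, 95.5, 74.7 and 60.5 CPM in Ezh2-deficient replicates 1 to 4. WT replicates 1 to 5 held 70.7, 75.4, 96.6, 109 and 61.1 CPM. The ranges nearly coincided, and the log2 fold change was -0.12 (95% interval -0.51 to 0.26, adjusted p = 0.646). With a high hypoxia score the estimate was -0.36, and with a low score 0.081.

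**Figure D2:**
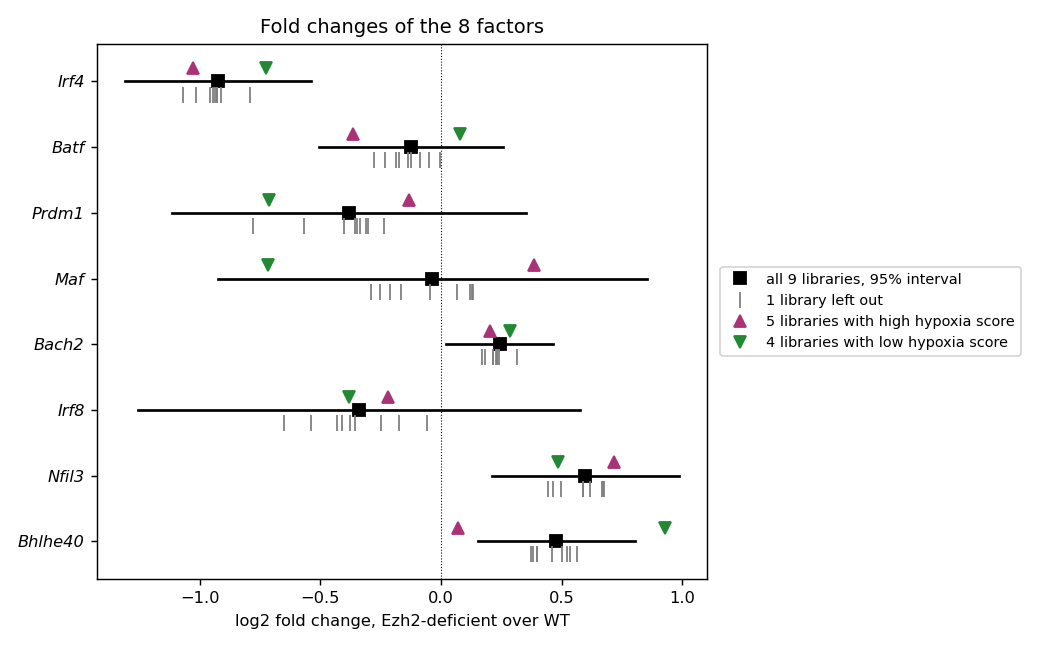
Log2 fold changes (Ezh2-deficient over WT) of the 8 factors, with squares and lines for all 9 libraries and their 95% intervals, grey ticks for fits that left out 1 library, and triangles for fits within the 5 high (upward) or 4 low (downward) hypoxia score libraries. The interval of Irf4 lies from -1.31 to -0.54, and the triangles of Bhlhe40 stand apart at 0.073 and 0.93.

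Nfil3 (ENSMUSG00000056749; chromosome 13, 52967209 to 52981073) encodes a basic leucine zipper repressor that is known to restrain Foxp3 when forced into Tregs. It was at 83.8, 56.9, 58.4 and 91.3 CPM in Ezh2-deficient replicates 1 to 4, and at 51.5, 49.99, 32.8, 57.4 and 47.9 CPM in WT replicates 1 to 5. The groups touched at 1 point, where WT replicate 4 lay above Ezh2-deficient replicate 2. Nfil3 rose 1.51-fold, from 47.9 ± 9.17 to 72.6 ± 17.5 CPM (0.60 in log2, 95% interval 0.21 to 0.99, adjusted p = 0.0326). The call was lost without Ezh2-deficient replicate 1 or 4 (0.50 and 0.45 in log2, with adjusted p = 0.111 and 0.114) or without WT replicate 1, 2, 3 or 5 (0.62, 0.59, 0.46 and 0.59, adjusted p = 0.0531, 0.0652, 0.0563 and 0.0594).

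High hypoxia score libraries held more Nfil3 than low ones in both groups, at 83.8 to 91.3 against 56.9 to 58.4 CPM without Ezh2 and at 49.99 to 57.4 against 32.8 to 47.9 CPM in WT. The difference between genotypes was 0.72 within the high (adjusted p = 0.00564) and 0.49 within the low score libraries (adjusted p = 0.199). With the score as a covariate it was 0.61 (adjusted p = 0.00137). The exact permutation test gave p = 0.0317, or 0.111 adjusted over all tested genes, where the lowest value of any gene was 0.0749.

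Bhlhe40 (ENSMUSG00000030103; chromosome 6, 108660629 to 108666925) encodes a helix-loop-helix repressor of activated T cells that limits interleukin-10. It was at 332, 454, 448 and 323 CPM in Ezh2-deficient replicates 1 to 4. In WT replicates 1 to 5 it was at 352, 315, 237, 265 and 228 CPM. WT replicate 1, with 1 floxed allele, was the highest of its group and the only WT library above any Ezh2-deficient library. Bhlhe40 rose 1.39-fold, from 279 ± 53 to 389 ± 71.4 CPM (0.48 in log2, 95% interval 0.15 to 0.80, adjusted p = 0.0397).

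Among the low hypoxia score libraries, Ezh2-deficient replicates 2 and 3 stood at 448 to 454 CPM and WT replicates 3 and 5 at 228 to 237 CPM (0.93 in log2, adjusted p = 0.0167). In the high score libraries the ranges overlapped, at 323 to 332 against 265 to 352 CPM (0.073, adjusted p = 0.72). The high libraries were thus below the low ones without Ezh2 and above them in WT. The difference between the 2 effects, an interaction examined after the data were seen, was -0.88 and did not pass (edgeR's adjusted p = 0.441 over all genes). In that edgeR test 0 genes passed, and 550 had an unadjusted p under 0.05. The Bhlhe40 call was also lost without any library other than Ezh2-deficient replicate 4 or WT replicate 1. Without Ezh2-deficient replicate 1, 2 or 3 the log2 fold change was 0.52, 0.37 and 0.38 (adjusted p = 0.053, 0.115 and 0.134). Without WT replicate 2, 3, 4 or 5 it was 0.50, 0.40, 0.46 and 0.40 (adjusted p = 0.0533, 0.0983, 0.0836 and 0.0658), and the exact permutation test gave p = 0.0635.

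Of the 8 factors, 2 were higher and 1 was lower, where 21.9% of all 13685 genes were called (13.1% higher and 8.8% lower; 1972 genes were called without Ezh2-deficient replicate 3). Their median log2 fold change was -0.08, beside 0.00 for all tested genes. For 1 of the 8, Irf4, the groups did not overlap, as for 21.2% of all genes (12.5% higher and 8.69% lower).

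Bach2 (ENSMUSG00000040270; chromosome 4, 32238804 to 32586108), the repressor that keeps Tregs from the effector state, was at 250, 228, 230 and 224 CPM in Ezh2-deficient replicates 1 to 4. WT cultures 1 to 5 held 241, 193, 206, 181 and 163 CPM. Only WT replicate 1, with 1 floxed allele, reached the range of the Ezh2-deficient libraries. Bach2 missed the threshold with all libraries (log2 fold change 0.24, 95% interval 0.02 to 0.47, adjusted p = 0.105) and passed without WT replicate 1 (0.32, adjusted p = 0.0245). Its antisense gene Bach2os, which shares exonic sequence with it, had 3 to 23 counts per library against 6262 to 14276 for Bach2.

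Prdm1 (ENSMUSG00000038151; chromosome 10, 44437177 to 44528501), the BLIMP-1 gene, was at 51.5, 45.6, 36.1 and 96.5 CPM in Ezh2-deficient replicates 1 to 4. In WT replicates 1 to 5 it was at 83.6, 75.5, 39.2, 83.7 and 92.2 CPM. Ezh2-deficient replicates 1 to 3 and WT replicate 3 were low, and Ezh2-deficient replicate 4 was the highest of all 9. The change of -0.38 (95% interval -1.12 to 0.35) did not pass (adjusted p = 0.431). Without Ezh2-deficient replicate 4 it was -0.78 (adjusted p = 0.0684).

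Maf (ENSMUSG00000055435; chromosome 8, 115682942 to 115707794), which encodes c-MAF, was at 109, 45.9, 48.0 and 114 CPM in Ezh2-deficient replicates 1 to 4. WT cultures 1 to 5 had 81.3, 56.7, 45.5, 117 and 106 CPM. Levels fell into a low set of 3 libraries near 46 to 48 CPM and a spread of higher ones, from both groups. The log2 fold change was -0.03 with a 95% interval of -0.92 to 0.85 (adjusted p = 0.963), so that changes of nearly 2-fold in either direction lie inside the interval.

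The 3 libraries with the least Maf were those with the least Cd8a and Cd8b1, Ezh2-deficient replicates 2 and 3 and WT replicate 3, at 14.2 to 16.4 CPM for the pair of markers. The same 3 had the lowest Prdm1 of all libraries, at 36.1 to 45.6 CPM, while all others were at 51.5 CPM or more. All 3 had low hypoxia scores. WT replicate 5, the remaining low score library, had 70.1 CPM of CD8 markers, 106 CPM of Maf and 92.2 CPM of Prdm1. The NK cell markers Ncr1 and Klra8 had no count in any library. What CD8 T cells or the hypoxia response contributed to Maf and Prdm1 was not tested.

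**Figure D3:**
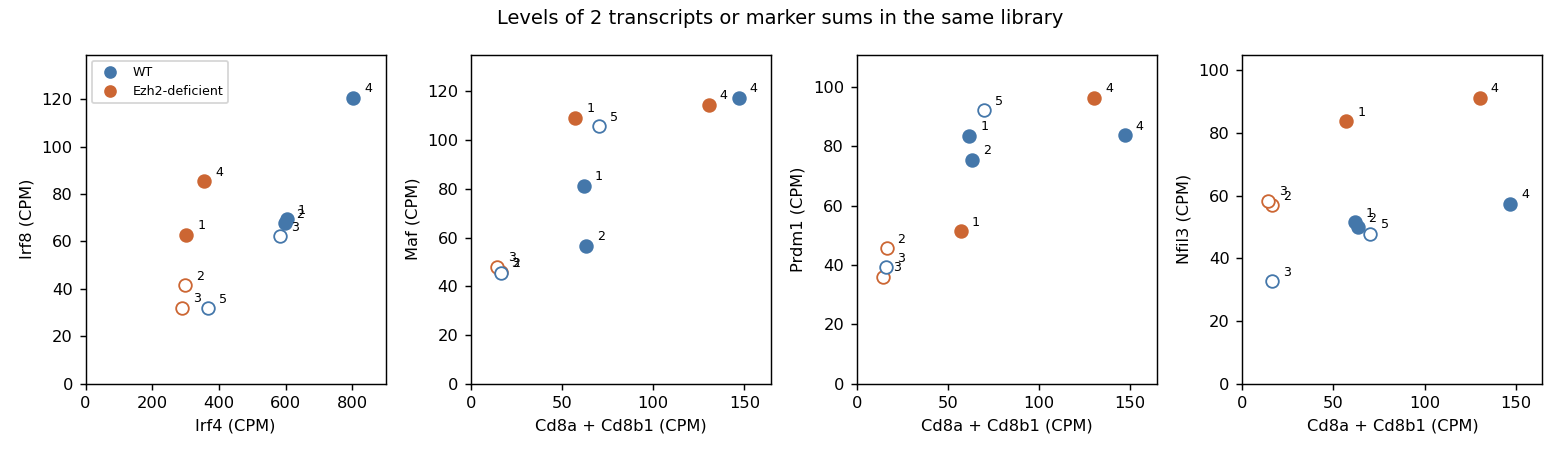
Levels in the same library, in CPM, of Irf8 against Irf4 (first panel) and of Maf, Prdm1 and Nfil3 against the sum of the CD8 markers Cd8a and Cd8b1, with replicate numbers, WT in blue, Ezh2-deficient in orange, and filled points for high hypoxia scores. The 3 libraries under 17 CPM of CD8 markers have the lowest Maf and Prdm1, and within each group the order of libraries is the same for Irf4 and Irf8.

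Levels of different genes were set side by side per length, as RPKM, which is CPM per kilobase of all annotated exons of the gene. In WT Tregs Irf4 was the highest at 121 ± 31.4 RPKM and lay above Bhlhe40 (59.4 ± 11.3) in 5 of 5 libraries. Bhlhe40 and Batf (58.7 ± 14.0 RPKM) did not differ beyond their spread. Batf lay above Nfil3 (23.7 ± 4.53 RPKM), also without overlap. Nfil3 and Bach2 (19.8 ± 2.98) overlapped, as did Bach2 and Prdm1 (13.4 ± 3.72), and Irf8 (9.97 ± 4.53) and Maf (9.87 ± 3.73 RPKM) came last.

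In Ezh2-deficient Tregs Bhlhe40 stood first at 82.7 ± 15.2 RPKM and Irf4 second at 63.5 ± 6.16, with overlapping ranges and Bhlhe40 above Irf4 in 3 of 4 libraries. Irf4 and Batf (53.9 ± 10.4 RPKM) overlapped there too, whereas Nfil3 (35.8 ± 8.66) lay above Bach2 (23.4 ± 1.17), and Bach2 above Prdm1 (10.3 ± 4.8 RPKM), in 4 of 4 libraries without overlap. Maf (9.63 ± 4.55) and Irf8 (7.86 ± 3.36 RPKM) came last. With the longest transcript as the length, levels were 2.03-fold higher for Irf8, 1.51-fold for Bhlhe40 and 1.47-fold for Batf, the largest shifts of the 8. That choice changed the order: Irf8 came sixth in both groups, at 20.3 RPKM in WT and 16.0 RPKM without Ezh2. Maf was then last in WT (12.8 RPKM) and Prdm1 last without Ezh2 (10.9 RPKM), and Batf (79.4 RPKM) stood above Irf4 (65.4 RPKM) without Ezh2.

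**Figure D4:**
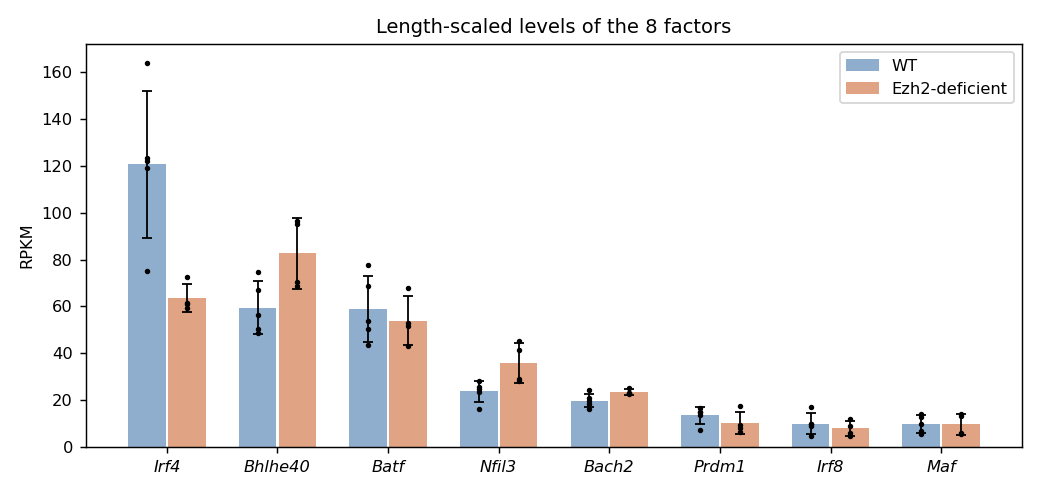
Length-scaled levels in RPKM (bars from 0, mean and SD, dots for libraries) of the 8 factors in WT and Ezh2-deficient Tregs, ordered by the WT mean. Irf4 leads in WT at 121 RPKM, and Bhlhe40 leads without Ezh2 at 82.7 RPKM.

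Irf4 and Bach2 act in opposite directions on effector differentiation, and their ratio per library did not overlap between the groups. The length-scaled Irf4 level was 2.45, 2.66, 2.55 and 3.22 times that of Bach2 in Ezh2-deficient replicates 1 to 4. In WT replicates 1 to 5 it was 5.07, 6.28, 5.74, 8.99 and 4.59 times that of Bach2. The log2 ratio was 1.44 ± 0.17 (SD, n = 4) against 2.58 ± 0.37 (SD, n = 5), a description that rests on the same Irf4 counts as the test above. The ratios of Irf4 to Irf8 (log2 3.11 ± 0.51 against 3.68 ± 0.29) and of Prdm1 to Bach2 (-1.29 ± 0.63 against -0.61 ± 0.59) overlapped.

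A list of T cell receptor signalling genes held steps of the pathway and also genes that respond to it, such as the Nr4a and Egr genes. Of these, 6 of 22 rose and 1 fell (31.8%, against 21.9% of all genes, median -0.03). Nr4a2, an early gene of receptor signalling, rose to 18.1 ± 8.10 from 5.12 ± 1.10 CPM (1.82, adjusted p = 0.00192), and Prkcq, the protein kinase C of the pathway, to 506 ± 25.8 from 347 ± 48.4 CPM (0.54, adjusted p = 0.00299). Of the other Nr4a and Egr genes, Nr4a1 rose by 1.04 (adjusted p = 0.0421). With 1 library left out, that call held only without Ezh2-deficient replicate 4. Nr4a3 (0.01, adjusted p = 0.99), Egr1 (-0.08, adjusted p = 0.807), Egr2 (-0.28, adjusted p = 0.484) and Egr3 (0.03, adjusted p = 0.965) did not pass. Nfatc2 rose by 0.38 (adjusted p = 0.015), a call lost without Ezh2-deficient replicate 1, 2 or 3 (adjusted p at most 0.0691). Lck, the proximal kinase, fell by 0.30 (adjusted p = 0.0213), lost without Ezh2-deficient replicate 3 (adjusted p = 0.052). The list held 3 called genes without Ezh2-deficient replicate 1 or 3.

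Of the other IRF genes, 1 of 7 rose (14.3%, against 21.9% of all genes; median 0.01). Irf2, a repressor of interferon responses, rose to 121 ± 5.28 from 94.9 ± 10.6 CPM (0.35 in log2, adjusted p = 0.0144), but not without Ezh2-deficient replicate 3 or 4 (adjusted p at most 0.0616). Irf5 (-0.55, adjusted p = 0.0612) and Irf3 (-0.35, adjusted p = 0.0767) did not pass with all libraries. Irf5 passed without WT replicate 5, and Irf3 on leaving out Ezh2-deficient culture 2 or WT culture 2. The list held no called gene on leaving out Ezh2-deficient culture 3 or 4, and 2 without Ezh2-deficient replicate 2 or WT culture 2 or 5.

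BATF binds DNA with JUN proteins. A list of JUN and FOS genes with relatives of Batf held 8 tested genes, of which 3 rose (37.5%, against 21.9%, median 0.30). The JUN genes Junb (-0.82 in log2, adjusted p = 0.205) and Jund (-0.56, adjusted p = 0.0804) were lower and did not pass, while Jun rose. Fosb was at 131, 142, 163 and 17.4 CPM in Ezh2-deficient replicates 1 to 4, of which only replicate 4 lay within the WT range of 15.2 to 29.5 CPM (log2 fold change 2.54, adjusted p = 0.0188). Fos was at 59.5 to 192 against 18.2 to 58.9 CPM, with the groups apart by under 1 CPM (1.56, adjusted p = 0.0432), and Jun rose by 0.54 (adjusted p = 0.028). These calls depended on single libraries: Fosb was lost on leaving out Ezh2-deficient culture 3 or WT culture 3 (adjusted p at most 0.0539). Fos was lost on leaving out Ezh2-deficient culture 2 or 3 or WT culture 1, 2, 3 or 4, and Jun on leaving out Ezh2-deficient culture 1, 2 or 3 or WT culture 2, 3 or 5 (adjusted p at most 0.111 and 0.0874). None of the list was called on leaving out Ezh2-deficient culture 3 or WT culture 3, and 1 without WT replicate 2.

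Relatives of BACH2 and c-MAF, which share DNA elements with them, moved by small amounts. Of 7 tested, 2 rose and 1 fell (42.9%, against 21.9%; median 0.29). Nfe2l2, the antioxidant response factor, rose by 0.39 (adjusted p = 0.0172) and Bach1 by 0.29 (adjusted p = 0.0455), while the small MAF gene Mafg fell by 0.42 (adjusted p = 0.0399). Bach1 was lost with any 1 library left out (adjusted p at most 0.152). Mafg was lost on leaving out Ezh2-deficient culture 1, 2 or 3 or WT culture 3 or 4 (adjusted p at most 0.0954), and Nfe2l2 without Ezh2-deficient replicate 1 or 3 (adjusted p at most 0.0769). The count on this list was 0 without Ezh2-deficient replicate 3, and 1 when Ezh2-deficient culture 1 or 2 or WT culture 3 or 4 was left out.

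Clock genes and relatives of Nfil3 and Bhlhe40 were called in 5 of 14 tested (4 higher and 1 lower, 35.7%, against 21.9%; median 0.33), and 5 or 6 genes of the list were called with any 1 library left out. Tef, an activator that binds the same sites as NFIL3, was at 66.2, 59.3, 69.7 and 57.2 CPM without Ezh2 and 31.8 to 39.2 CPM in WT libraries (log2 fold change 0.83, SE 0.09, adjusted p = 0.000111). Per3, a period gene, rose to 16.8 ± 3.45 from 7.46 ± 1.82 CPM (1.17, adjusted p = 0.00143), and Nr1d2, a nuclear receptor repressor of the clock, to 34 ± 6.31 from 17.9 ± 4.77 CPM (0.92, adjusted p = 0.0061). In all 3 the groups did not overlap, and each call held with any 1 library left out. The nearest relative of Bhlhe40, Bhlhe41, stayed under 1 CPM on average in both groups.

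**Figure D5:**
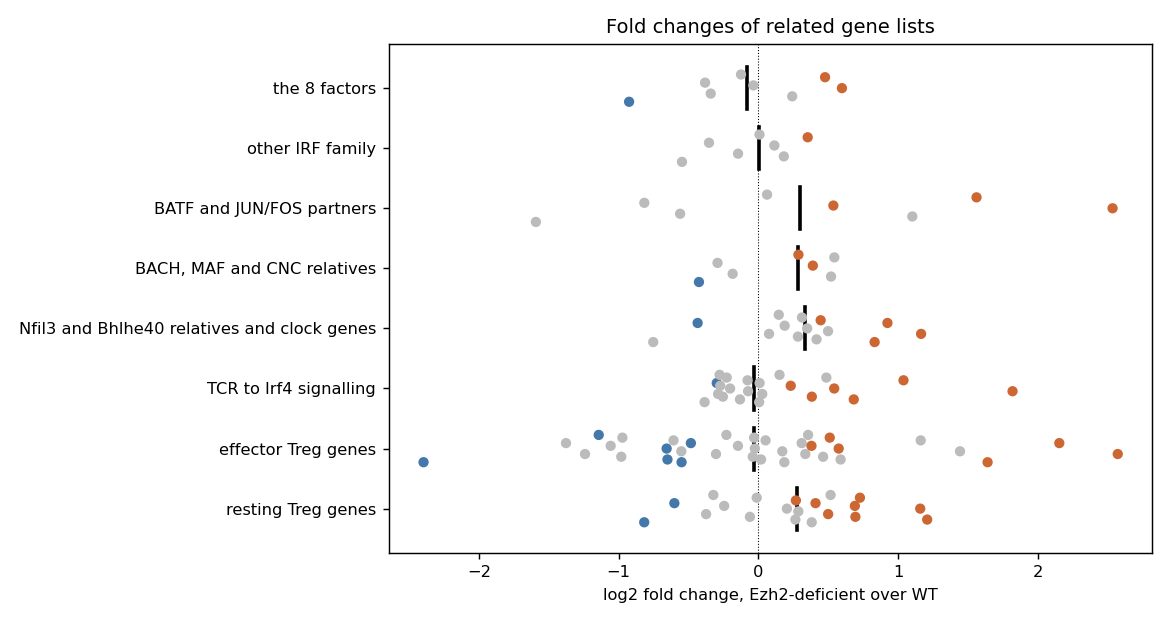
Log2 fold changes (Ezh2-deficient over WT) of tested genes in the 8 factors and 7 related lists, with orange for genes that rose, blue for genes that fell, grey for genes that did not pass, and black bars for list medians. Medians lie between -0.08 and 0.33. Rising genes outnumber falling genes on the resting Treg list, 8 to 2, and over all tested genes, 1797 to 1204. They do so on every other list shown except the effector Treg list, with 6 of each.

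Effector Treg genes, many of them targets of IRF4 and its partners, moved in both directions: 6 of 36 rose and 6 fell (33.3%, against 21.9%; median -0.03). Id2, a helix-loop-helix inhibitor, rose to 196 ± 20.1 from 62.7 ± 12.3 CPM (1.64 in log2, adjusted p = 3.34e-05), and S100a4, a calcium-binding protein gene of memory T cells, to 283 ± 53.2 from 47.5 ± 16.3 CPM (2.57, adjusted p = 0.000165). Capg, an actin-capping gene, fell to 514 ± 57.8 from 809 ± 70.3 CPM (-0.66, adjusted p = 0.000844). Tigit, an inhibitory receptor, fell to 31.7 ± 12.8 from 70.1 ± 22 CPM (-1.14, adjusted p = 0.0254), a call lost without Ezh2-deficient replicate 1 or 2 (adjusted p at most 0.0587). Il10, the cytokine that BLIMP-1 and c-MAF promote and BHLHE40 restrains, was at 2.76, 1.53, 1.08 and 11.6 CPM without Ezh2 and 6.89 to 16.3 CPM in WT libraries (-1.24, adjusted p = 0.211). Ezh2-deficient replicate 4 had the highest Il10 of its group. It also had the group's highest Irf4, Irf8, Prdm1, Maf, Nfil3, CD8 markers and hypoxia score, and its lowest Batf, Bach2 and Bhlhe40. With that library left out Il10 fell by 2.53 in log2 (adjusted p = 0.00118), and no other fit that left out 1 library called it. Of all 22 alternative fits, 5 called Il10 lower, that fit among them. The relation of Il10 to the factors, the CD8 markers and the hypoxia score was not tested.

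Of the resting Treg genes, which BACH2 is known to favour, 8 of 20 rose and 2 fell (50%, against 21.9%; median 0.28). Id3 rose to 139 ± 11.1 from 60.3 ± 10.9 CPM (1.21 in log2, adjusted p = 8.07e-05), the cytokine receptor gene Il6st to 257 ± 31.6 from 155 ± 15.4 CPM (0.73, adjusted p = 0.000432), and the kinase gene Txk to 102 ± 7.43 from 62.9 ± 8.78 CPM (0.69, adjusted p = 0.000858). Among those that fell was Myb, a factor of effector Treg differentiation as well as of resting cells. Myb was at 131 ± 19.9 against 230 ± 50.1 CPM (-0.82, adjusted p = 0.00503). Tcf7, at 178 ± 22.5 and 185 ± 24 CPM, missed the threshold (-0.06 in log2, adjusted p = 0.729). Among the low hypoxia score libraries alone, 2 genes of this list were called, where 570 genes were called in all.

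For each factor, the genes with the most similar levels over the 9 libraries were sought among 8670 protein-coding genes with a mean of at least 10 CPM, by Pearson's r of log2 CPM after subtraction of the group means. All libraries enter each r, so depth, hypoxia score and CD8 markers are shared by the points. For Irf4 the leading gene was Zfyve27 (r = 0.958), for Batf Sil1 (0.988), for Prdm1 Igtp (0.983), for Maf Eif1b (0.969) and for Bach2 Hsph1 (0.915). For Irf8 it was Impa2 (0.993), followed by Jak3. Nfil3 was most like Higd1a (0.986), then Rpl7 (0.979) and Mxi1 (0.976). Higd1a and Mxi1 are on the hypoxia response list and Rpl7 is not. Bhlhe40 was most like Chd4 (0.986) and next Pim1 (0.938).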

How the data were processed

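The authors deposited a table of raw counts per Ensembl gene, not normalized, 1 column per library. The submitters' processing notes name STAR and GRCm38, and per the labels' protocols the libraries were stranded mRNA libraries. How reads were counted, with which strand setting and annotation, is not given in the sources used here. Symbols, positions and exon lengths came from GENCODE M21 on GRCm38, and promoters from RefSeq.

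The fit ran over all 13685 genes kept by edgeR's default filter, with trimmed-mean scaling and the quasi-likelihood test of edgeR 4.0.16 in R 4.3.3 (robust, two-sided), with Benjamini-Hochberg adjustment over all tested genes and a threshold of 0.05. "Rose", "fell" and "called" mean past it. Fold changes put Ezh2-deficient over WT. Exact permutation tests (scipy 1.17.1) compared mean log2 CPM, prior count 2. The fits were also tested on simulated counts. There edgeR called 21 of 67 genes changed 1.5-fold, 39 of 67 changed 2-fold and 56 of 66 changed 4-fold, and 8 unchanged genes. A gene that did not pass can thus still have changed.

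Libraries were separate by a chi-square check (lowest value per degree of freedom 23.6). The design text calls them biological replicates. Alternatives were other scalings and filters, DESeq2 1.42.0, limma-voom (limma 3.58.1), a replicate block, a test against 1.5-fold, the hypoxia score as a covariate or as 2 classes split at its largest gap, and leaving out single libraries or each group's highest Cd8a library. The interaction of genotype with class was added after the data were seen. The factors and lists were chosen with earlier results of these data known. Genes named from a list were its 3 with the smallest adjusted p. Junb, Jund, Lck, Tigit, Il10, Myb, Tcf7, Bhlhe41 and the marker genes singled out were named after their values were seen. So were Nr4a1, Nr4a3, Egr1, Egr2 and Egr3. Reads carried no molecular identifiers, so counts are of reads, not of molecules. Values of some list genes are not reported here.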

Additional observations from a re-analysis of the deposited data

Results flagged for a closer look

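Among 146 sets of values of named genes, 5 had a library far from the others of its group, where chance gives about 1 in 20, and 0 of them were sets of the 8 factors. All 5 were in the WT group. WT replicate 3 was the lowest for Bach1 (26.8 CPM), Nt5e (190 CPM) and Stx5a (81.5 CPM), WT replicate 1, with 1 floxed allele, was the highest for Fosb (29.5 CPM), and WT replicate 5 was the lowest for Foxp3 (1293 CPM). The causes were not tested.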

How the results depend on the processing

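Irf4 stayed lower in all 22 alternatives and called in 20 of them, Nfil3 was called in 12 and Bhlhe40 in 10. Leaving out each library in turn gave -1.07 to -0.79 for Irf4, -0.28 to -0.00 for Batf, -0.78 to -0.24 for Prdm1, -0.29 to 0.13 for Maf, 0.17 to 0.32 for Bach2, -0.65 to -0.06 for Irf8, 0.45 to 0.68 for Nfil3 and 0.37 to 0.56 for Bhlhe40. Maf changed sign without Ezh2-deficient replicate 2 or 3 (0.13 and 0.12) or WT replicate 4 or 5 (0.13 and 0.06), with the replicate block (0.041) and within the high hypoxia score libraries (0.38). Batf changed sign within the low score libraries (0.081) and with each group's highest Cd8a library left out (0.092). Same-numbered libraries of the 2 groups had correlations of deviations of 0.153, -0.083, 0.114 and 0.187, and none correlated best with its own number, so the numbers were not taken to pair the samples. The replicate block gave Irf8 -0.57 (adjusted p = 0.0147), Bhlhe40 0.41 (adjusted p = 0.0753) and 2751 called genes. Calls were lost without a filter for Nfil3 and Bhlhe40 (0.58 and 0.46), without the highest Cd8a libraries (0.54 and 0.54) and in the test against 1.5-fold (-0.92 for Irf4, 0.60 and 0.48), within the low score libraries for Irf4 and Nfil3 (-0.72 and 0.49), and within the high score libraries for Bhlhe40 (0.073). Counts of all called genes were 3001, 1972 to 3168 with 1 library left out, 410 against 1.5-fold, and 1764 and 570 within the high and low score libraries. The last 3 settings hold a stricter test or fewer libraries. Genes called on the lists ranged, with 1 library left out, over 0 to 2 (other IRF), 0 to 3 (JUN and FOS), 0 to 4 (BACH and MAF relatives), 5 to 6 (clock), 3 to 10 (signalling), 8 to 16 (effector) and 8 to 13 (resting). DESeq2 called 3 other IRF and 11 signalling genes, and the score as a covariate 2 and 11. Within the high score libraries the counts were 2 other IRF, 1 JUN and FOS and 0 BACH and MAF relatives. Within the low score libraries they were 0 other IRF, 0 BACH and MAF relatives, 2 clock, 1 signalling and 2 resting genes. By the longest transcript the RPKM, Ezh2-deficient and WT, were 79.4 and 86.5 for Batf, 16.0 and 20.3 for Irf8, 125 and 89.7 for Bhlhe40, and 26.2 for Bach2 without Ezh2. For the other changes the cause was not tested.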
